A study of Mus musculus with 6 samples.

Results

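MHC class II molecules carry peptides from endocytosed proteins to the surface of antigen-presenting cells, where CD4+ T cells read them. The genes described here belong to several steps of the pathway. They include the transcriptional coactivator Ciita, the invariant chain Cd74 and the peptide-binding chains H2-Aa, H2-Ab1 and H2-Eb1. The others are the peptide-exchange factor H2-DMa, H2-Oa, whose dimer tempers that exchange, and the lysosomal thiol reductase Ifi30. All were chosen by name, and each was read from the brightest array feature that the platform annotation pairs with its symbol alone. Of the 8 genes listed, 7 had such a feature, 1 each, among 22180 genes measured; Cd74 was not analysed here. The cells were J774A.1, a macrophage-like line of BALB/c mouse origin. They were given neuropeptide FF (NPFF), an amidated peptide that acts on G-protein-coupled receptors, at 1 nM in PBS for 18 h (3 arrays), or the PBS vehicle alone for 18 h (3 arrays, called control here although their titles call them non-treated). The labels name biological replicates of 1 cell line and do not say whether cultures were kept apart, so every p-value reflects only how far these samples vary, which may be technical.

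In resting macrophages the class II genes are held low, and interferon-gamma raises them through factors such as IRF1 that act on a promoter of Ciita. CIITA does not bind DNA itself. It docks on RFX, CREB and NF-Y proteins bound to the X and Y boxes that lie upstream of class II genes. The chains assemble with the invariant chain in the endoplasmic reticulum, lysosomal proteases trim that chain to a short peptide in the groove, and the DM heterodimer exchanges it for antigen, a step that the DO heterodimer tempers.

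Some of the promoters hold the paired X and Y boxes on which CIITA is known to act, and these stretches are printed to show that element. RefSeq promoter windows (GRCm38.p6, from 250 bases before the gene start to 50 bases after it) matched 5 of the 7 measured genes. H2-Aa, H2-Eb1 and H2-Oa each held GCAAC, a core of the X box, followed 24 or 25 bases later by CTGATTGG, a core of the Y box, on the strand of the gene. The stretches below give these cores in capitals with 10 bases on each side, and add H2-Eb2, a class II beta chain gene that held the same pair; of the other class II chains with a window, H2-DMb1, H2-DMb2 and H2-Ob did not.
H2-Aa, chr17:34287857-34287914, minus strand: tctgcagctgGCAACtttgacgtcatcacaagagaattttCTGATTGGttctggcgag
H2-Eb1, chr17:34305766-34305822, plus strand: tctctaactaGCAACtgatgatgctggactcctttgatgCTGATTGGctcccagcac
H2-Oa, chr17:34092293-34092350, plus strand: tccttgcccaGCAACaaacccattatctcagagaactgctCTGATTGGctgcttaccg
H2-Eb2, chr17:34325533-34325589, plus strand: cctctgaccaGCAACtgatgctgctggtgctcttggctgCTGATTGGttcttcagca
The first base of the X core lay 81 bases before the gene start in H2-Aa, 91 in H2-Eb1, 76 in H2-Oa and 132 in H2-Eb2. The letters were chosen after these promoters had been read. Searched on both strands, GCAAC occurred in 35.2% and CTGATTGG in 4.1% of 32851 promoter windows, and the 2 cores with 15 to 35 bases between them in 30 windows (0.0913%), 13 of them on the strand of the gene. No pair was found in the windows of H2-DMa or Ifi30. Only these exact letters were searched, so X and Y boxes with other letters would be missed there and in H2-DMb1, H2-DMb2 and H2-Ob. The reference strain is C57BL/6J, whose class II haplotype differs from that of BALB/c, and the part of that difference in the array signals was not tested.

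**Figure D1:**
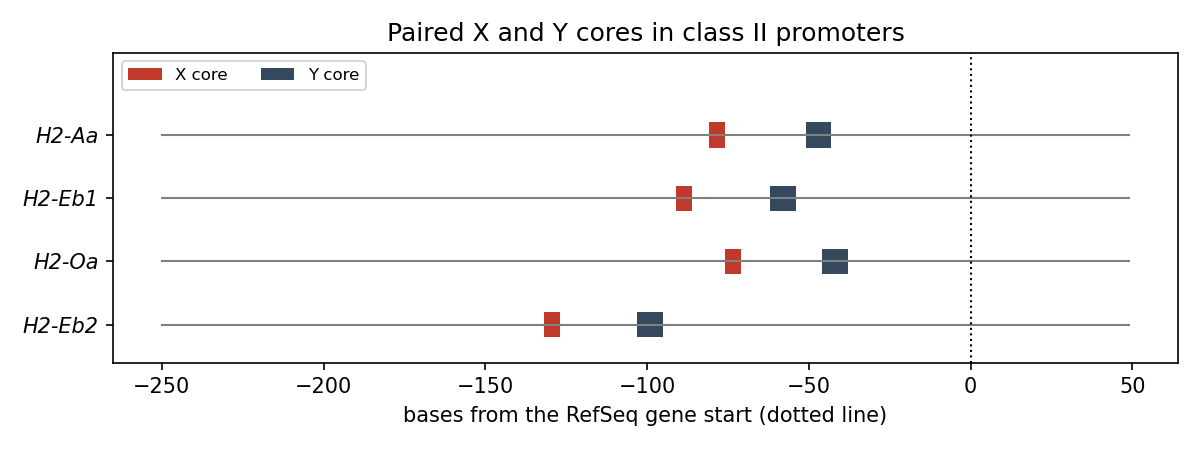
Positions of the X core and the Y core in 4 class II promoters, in bases from the RefSeq gene start (dotted line), drawn to scale on windows of 300 bases. The pair sits within about the same distance of the start in H2-Aa, H2-Eb1 and H2-Oa, with X cores at 81, 91 and 76 bases before it, and farther upstream in H2-Eb2, at 132 bases.

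NPFF was compared with control to ask whether the peptide moves the antigen presentation programme of these macrophages. No class II gene passed the test. By limma with Benjamini-Hochberg adjustment over all genes, 0 of the 7 had an adjusted p under 0.05, against a background of 0 of 22180 genes (0%), and each of the 7 had an adjusted p of 1.00. At an unadjusted p under 0.05 there were 0 of 7, where all genes gave 2.51%. In 0 of the 7 did the arrays of the groups lie apart, where all genes gave 8.58% (3.67% higher and 4.92% lower in NPFF). With all 6 arrays 4 genes were higher in NPFF and 3 lower, with a median difference of 0.05 log2, beside 51.7% of all genes higher and a median over all genes of 0.00.

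Control 1 stood apart from the other arrays and has to be known before the values are read. The SD over genes of its distance from the mean of the other arrays was 0.37 log2, against 0.11 to 0.13 for the NPFF arrays, 0.21 for control 2 and 0.12 for control 3. It was the lowest array for 5 of the 7 class II genes and the highest for Ciita, and over all genes it was the lowest array for 48.9% and the highest for 24%. The cause was not tested. Each class II gene and each pathway list is given with and without it.

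Ciita, the coactivator on which class II transcription depends (feature 17322842), read 7.09, 7.24 and 7.30 in the NPFF arrays, against 7.60, 7.37 and 7.26 in the controls, as quantile-normalized log2 intensity. Each NPFF array lay below the control mean, but control 3 lay below NPFF 3, so the groups overlapped. The means were 7.21 ± 0.11 in NPFF and 7.41 ± 0.17 in control (SD, n = 3 each), a difference of -0.20 (SE 0.11, 95% interval -0.46 to 0.05). This was the smallest p of the class II genes, 0.104 unadjusted by limma. Without control 1 the difference was -0.11, and against control 3 alone it was -0.05.

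H2-Aa and H2-Ab1 encode the alpha and beta chains of I-A, the class II molecule found in all laboratory strains. H2-Aa (feature 17343813) read 5.42, 5.39 and 5.49 in the NPFF arrays, against 5.22, 5.48 and 5.44 in the controls. H2-Ab1 (feature 17336494) read 5.86, 5.91 and 6.09 in the NPFF arrays, against 5.68, 5.98 and 6.02 in the controls. In both genes control 1 was the lowest array, and controls 2 and 3 lay among the NPFF arrays.

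The H2-Aa means were 5.43 ± 0.05 in NPFF and 5.38 ± 0.14 in control (SD, n = 3 each), a difference of 0.05 (SE 0.09, 95% interval -0.16 to 0.26). For H2-Ab1 the means were 5.95 ± 0.12 in NPFF and 5.89 ± 0.19 in control (SD, n = 3 each), a difference of 0.06 (SE 0.12, 95% interval -0.22 to 0.34). Both signs turned without control 1, to -0.03 for H2-Aa and -0.05 for H2-Ab1, and that of H2-Ab1 also without NPFF 3, to -0.01. Both features were dim: ranked by mean signal among all genes, H2-Aa stood at percentile 14.9 and H2-Ab1 at 33.1. Signal near the floor of an array limits what a difference can show.

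H2-Eb1 encodes the beta chain of I-E, the second class II molecule, which BALB/c cells can make and C57BL/6 cells cannot (feature 17336502). It read 6.33, 6.19 and 6.27 in the NPFF arrays, against 6.05, 6.33 and 6.24 in the controls. The highest NPFF array and the highest control were level, and control 1 was again the lowest. The means were 6.26 ± 0.07 in NPFF and 6.21 ± 0.14 in control (SD, n = 3 each), with a difference of 0.06 (SE 0.09, 95% interval -0.16 to 0.27) that turned to -0.02 without control 1. Its mean signal stood at percentile 43.0.

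H2-DMa, the alpha chain of the peptide-exchange factor DM (feature 17336407), was the other gene with every NPFF array below the control mean. It read 7.55, 7.65 and 7.81 in the NPFF arrays, against 7.81, 7.88 and 7.76 in the controls. NPFF 3 lay above control 3, so the groups overlapped. The means were 7.67 ± 0.13 in NPFF and 7.82 ± 0.06 in control (SD, n = 3 each), a difference of -0.15 (SE 0.09, 95% interval -0.35 to 0.06, unadjusted p = 0.128 by limma). This difference did not rest on control 1, and it was -0.15 without that array. It was -0.09 without NPFF 1, the array with its lowest value.

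H2-Oa, the alpha chain of DO, which is best known from B cells (feature 17336396), had the largest difference of the 7 on the higher side and the widest range over arrays. It read 6.90, 6.81 and 6.82 in the NPFF arrays, against 6.30, 6.78 and 6.83 in the controls. Controls 2 and 3 stood within 0.12 of all the NPFF arrays, and control 1 stood alone. The means were 6.84 ± 0.05 in NPFF and 6.64 ± 0.30 in control (SD, n = 3 each), a difference of 0.21 (SE 0.15, 95% interval -0.15 to 0.56). Without control 1 it was 0.03, and against control 3 alone 0.01. The mean signal of H2-Oa stood at percentile 54.1, that of Ciita at 63.1 and that of H2-DMa at 68.8.

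Ifi30, also called GILT, reduces disulfide bonds of antigens in the lysosome and is a constitutive gene of many macrophages (feature 17510136). It read 12.21, 12.17 and 12.15 in the NPFF arrays, against 12.08, 12.32 and 12.20 in the controls. The NPFF arrays lay inside the range of the controls. The means were 12.18 ± 0.03 in NPFF and 12.20 ± 0.12 in control (SD, n = 3 each), a difference of -0.02 (SE 0.08, 95% interval -0.21 to 0.17). Ifi30 differed by -0.09 without control 1. Its mean signal stood at percentile 99.5, among the brightest genes.

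**Figure D2:**
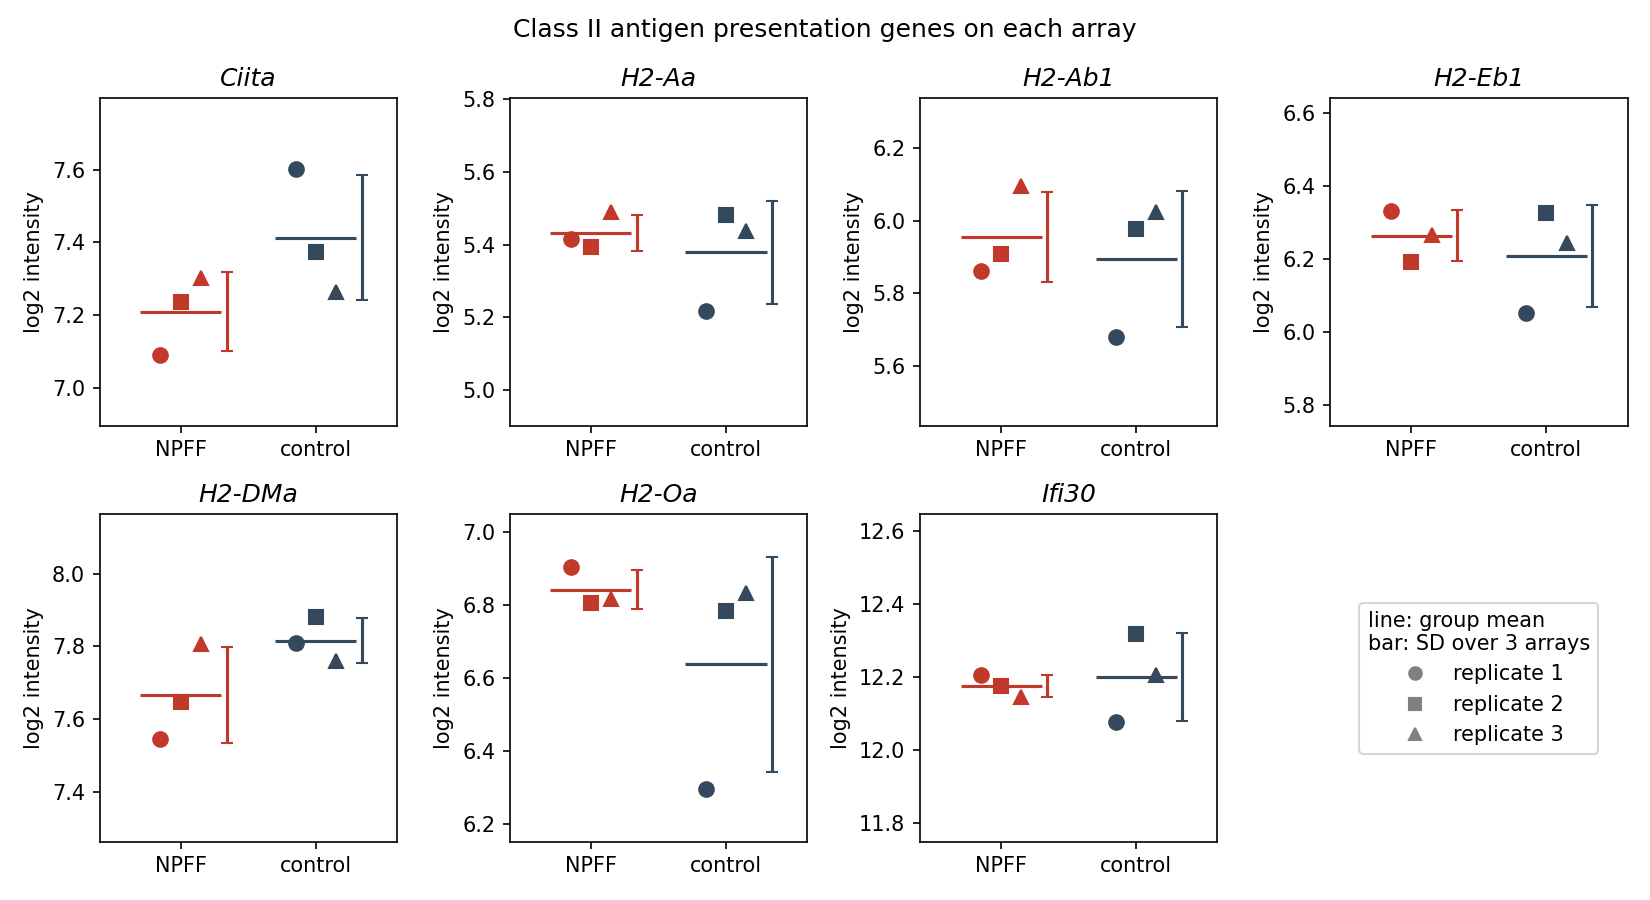
Quantile-normalized log2 intensity of the 7 class II genes on each array, NPFF left and control right, with the group mean (line) and the SD over 3 arrays (bar); every panel spans the same 0.9 log2 range around its own values. Control 1 (circle, right) is the lowest array in H2-Aa, H2-Ab1, H2-Eb1, H2-Oa and Ifi30 and the highest in Ciita, and the groups overlap in every panel.

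Set against control 3 alone, the control array nearest the others, all 7 differences lay between -0.09 and 0.02, with H2-DMa the most negative and H2-Eb1 the most positive. The others include all NPFF arrays, so choosing this 1 control favours small differences, and the range is description only. Without control 1, 1 of the 7 genes was higher in NPFF (H2-Oa) and the median was -0.05, while 39.1% of all genes were higher and their median was -0.02. The count of higher genes among the 7 therefore depended on that array. In that setting 0 of the 7 had groups that lay apart, where all genes gave 27.3%. The genes whose sign held with and without control 1 were Ciita, H2-DMa and Ifi30 on the lower side and H2-Oa on the higher side. The sign of Ifi30 turned when control 2 was left out, to 0.04.

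**Figure D3:**
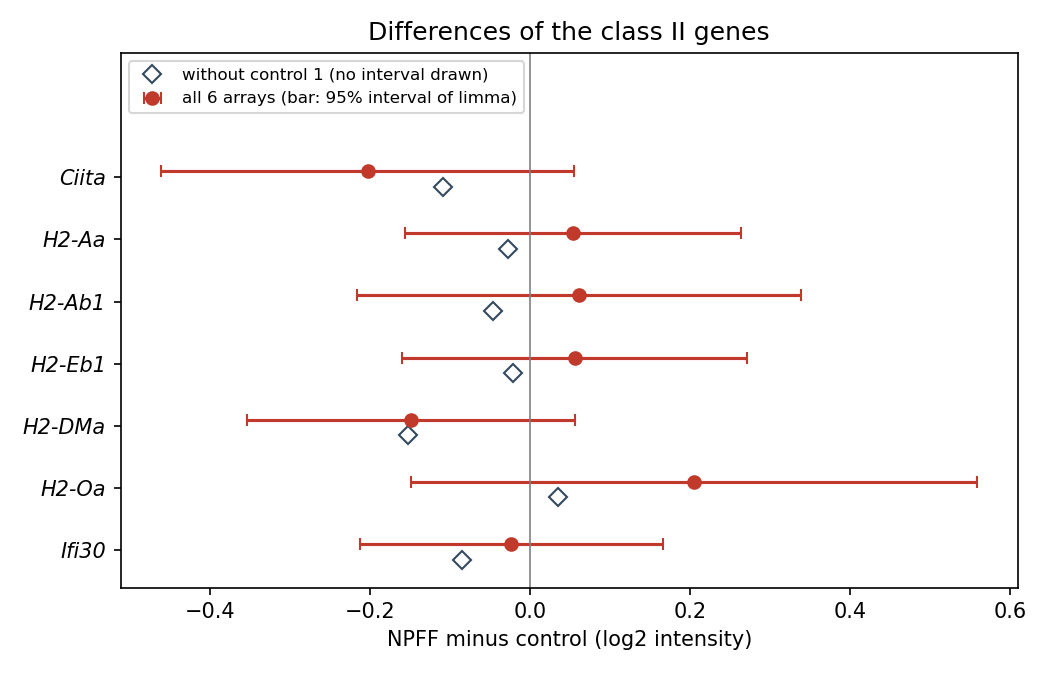
NPFF minus control in log2 intensity for each class II gene, with all 6 arrays (filled points, bars the 95% interval from limma) and without control 1 (open diamonds, no interval drawn). All 7 intervals include 0, and the points of H2-Aa, H2-Ab1 and H2-Eb1 cross to the lower side without control 1.

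Of the other class II chains and chaperones, 5 of 6 listed genes were measured, all 5 higher in NPFF and 0 past the threshold, with a median of 0.07, and control 1 was the lowest array in all 5. H2-Eb2 differed by 0.09 (SE 0.07), H2-Ea, the alpha chain of I-E, by 0.07 (SE 0.08), H2-DMb2, a beta chain of DM, by 0.07 (SE 0.10), and H2-DMb1 by 0.05 (SE 0.07). The H2-Ea feature read 5.49, 5.48 and 5.34 in the NPFF arrays, against 5.24, 5.42 and 5.45 in the controls. Without control 1, 3 of 5 were higher and the median was 0.00. Most of these features were dim, with H2-DMb1 at percentile 8.94 of mean signal and H2-Eb2 at 12.5, while H2-Ob, the beta chain of DO, stood at 48.0. H2-DMb1 and H2-DMb2 are near-identical copies, and a probe could read both.

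Among the DNA-binding partners of CIITA, 7 of 7 were higher in NPFF, 0 past the threshold, with a median of 0.07. Nfyb, a subunit of the Y-box factor NF-Y, read 7.44, 7.38 and 7.31 in the NPFF arrays, against 6.52, 7.40 and 7.36 in the controls, a difference of 0.28 (SE 0.23). Control 1 lay far below the other 5 arrays, which were close to each other, and without it Nfyb differed by -0.0028. Rfx5, the X-box factor, differed by 0.15 (SE 0.15) and Nfya by 0.13 (SE 0.17), and they too turned, to -0.03 and -0.08. Creb1, which binds the X2 element, was the 1 of 7 genes whose groups did not overlap, beside 8.58% of all genes, and there was no such gene in this list with the values as deposited, centred on array medians or after cyclic loess. It read 10.30, 10.31 and 10.29 in NPFF and 10.28, 10.19 and 10.26 in control, a difference of 0.06 (SE 0.06), or 0.08 without control 1. Without control 1, 3 of the 7 were higher and the median was -0.0028.

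The interferon-gamma route to Ciita was measured in 9 of 10 genes, 6 higher and 3 lower in NPFF with a median of 0.03, and 4 higher with a median of -0.03 without control 1. Irf8, a myeloid transcription factor, had the smallest p of this list (0.0755 unadjusted by limma). Irf8 has 2 features, of which the brighter was read. It read 9.13, 9.04 and 9.08 in the NPFF arrays, against 9.50, 9.32 and 9.11 in the controls. All NPFF arrays but the highest lay below all controls, and the difference was -0.22 (SE 0.11), or -0.13 without control 1. Usf1, which binds the interferon-responsive promoter of Ciita, differed by 0.26 (SE 0.16), and by 0.10 without control 1. Jak2, a kinase of the interferon-gamma receptor, differed by -0.19 (SE 0.12), and by -0.05 without control 1. It was the 1 of 9 genes here whose groups did not overlap, beside 8.58% of all genes. The count was 2 with the values as deposited, centred on array medians, or with the mean over all features. All genes gave 7.43%, 6.28% and 8.48% in these settings. Irf1, the factor that interferon-gamma induces ahead of Ciita, differed by 0.19 (SE 0.16) and by 0.00 without control 1. The receptor chains Ifngr1 and Ifngr2 were among the genes higher by less than these, and no gene of the route passed the threshold.

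The endolysosomal list holds proteases that trim the invariant chain and antigens, an inhibitor of cathepsins, and lysosomal membrane proteins. All 12 genes were measured, 7 higher and 5 lower in NPFF, and 0 were past the threshold. The median was 0.02, and differences ran from -0.09 to 0.23. Cst3, which encodes cystatin C, an inhibitor of cathepsins, read 13.02, 13.02 and 12.98 in the NPFF arrays, against 12.91, 12.91 and 12.93 in the controls. Cst3 was the 1 of 12 genes here whose groups did not overlap, beside 8.58% of all genes. It has 2 features, of which the brighter was read. With the mean over all features, or with arrays centred on their medians, no gene of this list lacked overlap. Cst3 differed by 0.09 (SE 0.06), or 0.08 without control 1. Ctsz, a lysosomal carboxypeptidase, differed by 0.23 (SE 0.19), Ctsl, a cathepsin that cleaves the invariant chain in thymic epithelium, by 0.14 (SE 0.12), and Lamp2, a lysosomal membrane protein, by -0.09 (SE 0.08). Without control 1, Ctsz differed by 0.00, and 4 of 12 genes were higher with a median of -0.04.

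Of the list called surface turnover 4 of 6 symbols were measured, the others being older symbols of Marchf1 and Marchf8. A role of Ubxn1 in class II turnover was not tested here, and that gene enters the count and median of this list. Ubxn1 differed by 0.07 (SE 0.15), the ubiquitin ligases Marchf8 and Marchf1 by 0.06 (SE 0.14) and -0.03 (SE 0.10), and Cd83, which protects class II from Marchf1, by 0.01 (SE 0.15). MARCH1 is the ligase that removes class II from the surface of resting antigen-presenting cells. The median was 0.03, and -0.10 without control 1, with 1 of 4 genes higher.

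The class I pathway, which loads peptides made in the cytosol, was measured in 11 of 12 listed genes for comparison. There 7 were higher and 4 lower in NPFF, 0 past the threshold, with a median of 0.01 and, without control 1, -0.05. Erap1, an aminopeptidase that trims class I peptides in the endoplasmic reticulum, read 8.72, 8.69 and 8.69 in the NPFF arrays, against 9.06, 8.85 and 8.92 in the controls. The difference was -0.24 (SE 0.07), or -0.18 without control 1. Erap1 was the 1 of 11 genes here whose groups did not overlap, beside 8.58% of all genes. It was the 1 gene of the 6 lists with an unadjusted p under 0.05 (0.0153 by limma, adjusted p = 1.00), a level that 2.51% of all genes reached. The peptide-loading factors Tapbp and Calr differed by 0.30 (SE 0.23) and 0.13 (SE 0.12), and the immunoproteasome subunit Psmb8 by 0.14 (SE 0.13). Without control 1, Tapbp differed by 0.02, Calr by -0.0028 and Psmb8 by 0.02. Tapbp has 2 features, of which the brighter was read.

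**Figure D4:**
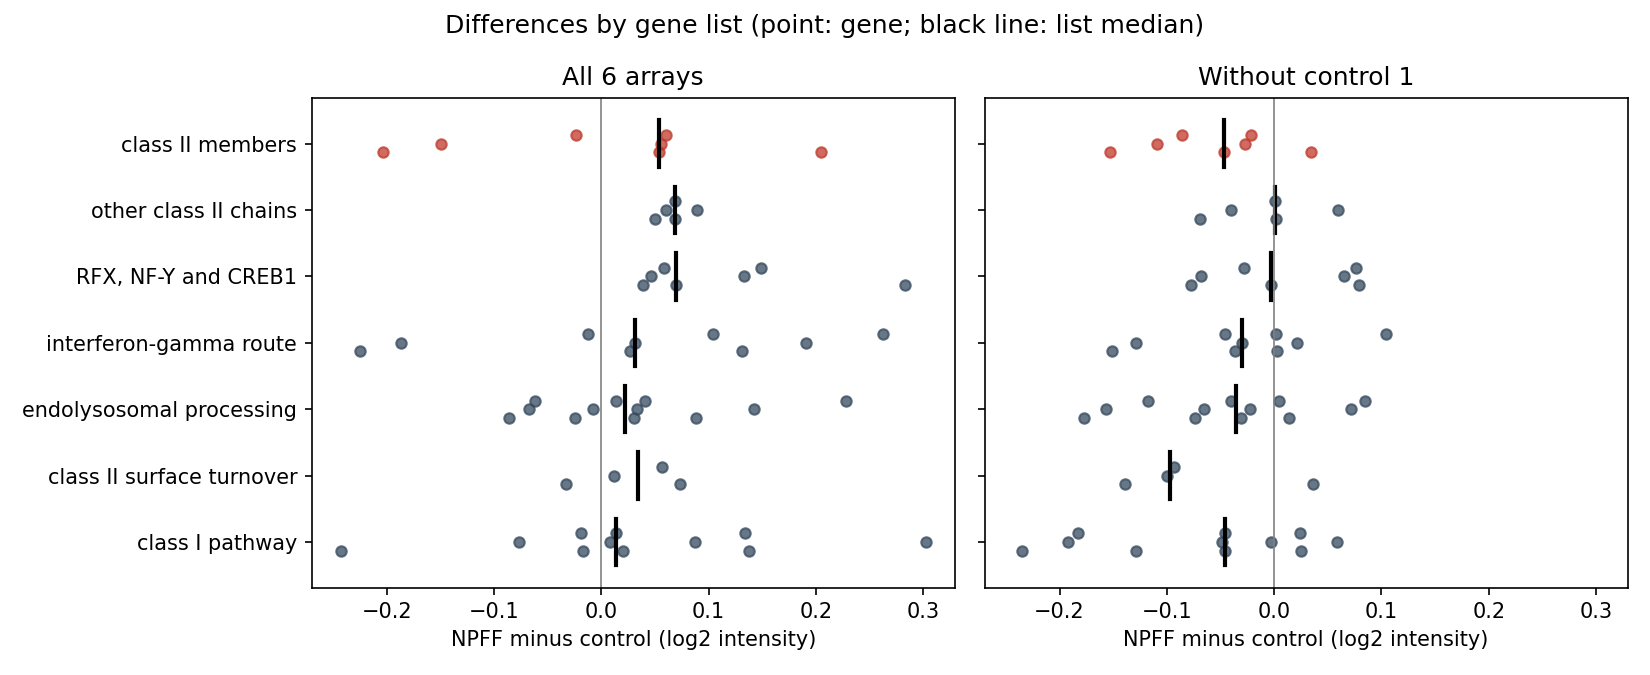
NPFF minus control in log2 intensity for each gene (points) of the 7 class II genes and the 6 lists around them, with list medians (black lines), for all 6 arrays (left) and without control 1 (right). List medians lie between 0.01 and 0.07 on the left and between -0.10 and 0.00 on the right.

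Among the measured class II genes, H2-Oa had the widest spread over the 6 arrays. The genes most like H2-Oa in pattern were therefore sought among 3432 genes with an SD of at least 0.2 over the arrays. The 5 closest by Pearson's r over 6 arrays were Wdfy4, Mrpl10, Kif18b and Brd9 (each 0.998) and Mknk2 (0.997). These are descriptions over 6 arrays that share control 1 as an extreme point. Wdfy4 spanned 0.55 log2 over the 6 arrays and 0.08 without control 1, and Mknk2 1.24 and 0.24, as H2-Oa spanned 0.61 and 0.12.

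Markers were read for macrophages, for dendritic and B cells, which also make class II, and for T cells. Of 10 macrophage markers 9 were measured, all above the median signal of all genes, from Mertk at the 58.8th percentile to Lyz2, a lysozyme, at the 99.9th. The mean over that list was 10.63 to 10.72 in NPFF and 10.41 to 10.72 in control. Of 8 dendritic cell markers 7 were measured, 3 of them above the median signal, from Flt3 at the 22.9th percentile to Cd209a at the 80.8th, with list means of 6.60 to 6.65 in NPFF and 6.60 to 6.70 in control. The 5 measured B cell markers of 6 lay between Ms4a1 at the 20.2nd and Cr2 at the 45.6th percentile, with list means of 5.90 to 5.93 in NPFF and 5.78 to 6.06 in control. The 4 measured T cell markers of 5 lay between Cd3d at the 22.6th and Cd8a at the 33.3rd, with list means of 5.71 to 5.75 in NPFF and 5.64 to 5.88 in control. Signals of different probes are not levels that can be ranked against each other. In bulk RNA, fewer cells making a transcript and less transcript per cell cannot be told apart.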

How the data were processed

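The authors deposited 1 log2 intensity per transcript cluster and array, a scale inferred from the span of the values. How they corrected background and normalized, and on which genome build, is not given in the sources used here. Per the labels, TRIZOL-extracted total RNA was biotin-labelled with an Affymetrix whole-transcript kit. The arrays as deposited did not share 1 distribution (departures of up to 0.17 log2), so the 33794 features were quantile-normalized. The annotation paired 23521 features with 1 symbol, 1814 with several and 8459 with none. Where a gene had several features, the brightest was kept; no dim features were removed. NPFF was compared with control by limma 3.58.1 in R 4.3.3 (group only, two-sided, 4 residual and 2.49 prior degrees of freedom, Benjamini-Hochberg over 22180 genes, threshold 0.05). The code was run on simulated data with independent noise and no outlying array such as control 1. Its planted changes were larger than the differences of the class II genes, so it does not show that such small differences would be found. The number of arrays limits the precision. Members, lists and tests were chosen with earlier results of these data known. All members are named; of each pathway list, up to 4 genes by smallest p; of each marker list, the dimmest and the brightest; the 5 genes most like the most variable member leave out predicted symbols. Same-numbered arrays did not deviate together throughout (r across genes 0.23, 0.45 and -0.33), so no pairing was used. Alternatives were other normalizations, a filter on dim genes, the mean over features, a replicate block, array weights, no moderation, and arrays left out. Listed genes that no feature named alone are not reported here.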

Additional observations from a re-analysis of the deposited data

How the results depend on the processing

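In each of 15 alternative settings 0 genes passed the threshold over all genes, and no class II gene did. The count of class II genes higher in NPFF, 4 of 7, was 2 without controls 1 and 2 and 2 with array weights, and 1 to 5 with single arrays left out, lowest without control 1. Their median difference, 0.05, was -0.048 with array weights and ran from -0.05 (without control 1) to 0.10 (without control 2). The count whose groups did not overlap, 0, was 1 with arrays centred on their medians (Ciita, lower), where all genes gave 6.28%, and 0 to 3 with single arrays left out; it was 3 without control 3 (Ciita and H2-DMa lower, H2-Oa higher; 18.8% of all genes) and 2 without NPFF 3 (Ciita and H2-DMa; 16.3%). H2-Aa turned to -0.0063 without controls 1 and 2 and to -0.011 with array weights, and H2-Ab1 to -0.069 and -0.057. With single arrays left out, differences ran from -0.027 to 0.10 for H2-Aa, -0.046 to 0.13 for H2-Ab1 (also lower, -0.0093, without NPFF 3), -0.022 to 0.12 for H2-Eb1, -0.086 to 0.036 for Ifi30, -0.28 to -0.11 for Ciita, -0.22 to -0.09 for H2-DMa and 0.03 to 0.30 for H2-Oa. Array weights gave control 1 a weight of 0.121 and control 3 one of 2.37. With the replicate block 0 genes passed, 396 had an unadjusted p under 0.05 against 556 without it, and Ciita differed by -0.20. The filter on dim genes removed H2-Aa. No alternative moved the median of a pathway list by more than its spread between arrays within groups. That spread includes control 1, which widens it, so the comparison does not show that the medians were stable. Without control 1 the medians of all lists but the other class II chains turned from positive to negative. Counts of list genes higher, or without overlap, and of genes at an unadjusted p under 0.05 moved by over 1.5 times in 58 of 195 cases. The causes were not tested. Dim features limit what H2-Aa, H2-Ab1 and H2-Eb1 can show.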
